A study of Micropterus salmoides with 68 samples.

Results

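The genes odc1 and oaz1a encode ornithine decarboxylase, the enzyme that opens polyamine synthesis, and ornithine decarboxylase antizyme, the protein that holds that enzyme in check. They are 2 of the 18666 genes in a table of liver and spleen RNA abundances from largemouth bass (Micropterus salmoides), and were taken by their symbols. Both were chosen by their TPM in the 18 groups, with earlier results of these data known, so their levels and differences are given as a description and carry no test. The study sampled fingerlings from 1 breeding farm around a road transport of 4 h, at 125 fish per box of 30 L, followed by recovery in aquaria of 600 L in a room at 28 °C. Each of the 68 libraries, 34 per tissue, came from the RNA of an individually collected organ. The 18 groups are 9 conditions in each tissue. Fish were netted from the pond before transport (n = 4), taken at the end of transport (n = 4) or taken after 1 day of recovery (n = 4). At days 3, 4 and 5 of recovery, fish that the labels call normal and fish that they call abnormal were both taken, with 3 libraries of each kind at day 3 and 4 of each at days 4 and 5. What makes a fish normal or abnormal is not defined in the labels, and the words serve here only as names of groups. All fish after the first group had been transported and unfed, so transport, time and fasting cannot be told apart in any difference from the fish before transport. The comparisons with fish before transport share those 4 fish, and the fish labelled normal enter 2 of the 4 comparisons per tissue.

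Polyamines (putrescine, spermidine and spermine) are small positively charged molecules that bind RNA and are needed for translation and cell growth. Ornithine decarboxylase makes putrescine from ornithine, and its protein is among the shortest-lived in animal cells. Antizyme is the feedback arm. High polyamines make ribosomes shift frame on antizyme mRNA, the full protein is then made, and it binds ornithine decarboxylase, carries it to the proteasome and slows polyamine uptake. Because that control acts on translation, the mRNA level of oaz1a does not report the amount of antizyme, and only mRNA was measured here. Values are TPM, the length-scaled share of a library's transcripts that 1 gene makes up, on a fixed total per library, so levels of different genes can be set side by side.

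Some libraries stood apart. In liver, library 4 of the fish before transport and library 3 of day 1 had the lowest mean correlation with the other libraries of their group, 0.838 and 0.890 (Pearson r of log2(TPM + 1)). In spleen all 4 libraries of day 1 were low, between 0.805 and 0.857, and in day 1 library 3 the ribosomal protein gene rps3a held 27.4% of all TPM. In spleens of fish labelled abnormal the 10 most abundant genes took 20.8% to 62.7% of TPM, against 7.62% to 12.5% in those labelled normal, and the haemoglobin gene hbae5 alone took 2.68% to 13.5% against 0.0431% to 0.828%. Since TPM sum to a fixed total, such genes lower the share left for the rest. Values were therefore also rescaled by the median of ratios, which moved the median log2 difference over all genes from -0.51 to 0.01 for abnormal minus normal in spleen and from -0.24 to 0.03 for normal minus before in liver. Hepatocyte markers summed to 74853 to 158640 TPM in liver and to 103 to 4540 TPM in spleen, and none of the 11 matched hepatocyte markers was at 0 in every library of either tissue.

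In liver, odc1 was among the low genes before transport and among the high ones in recovering fish labelled normal. Before transport its 4 livers had 1.00, 1.03, 1.66 and 2.54 TPM. At the end of transport they had 13.04, 9.17, 3.59 and 9.85 TPM. After 1 day they had 14.55, 57.4, 135 and 12.1 TPM. That group held livers close to the end of transport, and those at 57.4 and 135 TPM lay within the range of fish labelled normal. Fish labelled normal had 113, 51.9 and 93.6 TPM at day 3. They had 47.3, 103, 85.7 and 142 TPM at day 4 and 134, 104, 31.9 and 46.0 TPM at day 5. Every liver labelled normal was above every liver taken before transport or at its end. Fish labelled abnormal had 1.65, 0.88 and 3.86 TPM at day 3. They had 1.03, 4.35, 6.03 and 3.05 TPM at day 4 and 2.33, 0.62, 1.17 and 1.07 TPM at day 5. Those 11 livers overlapped the 4 before transport and lay below all 11 labelled normal.

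The mean of odc1 in liver was 86.6 ± 37.4 TPM (SD, n = 11) in fish labelled normal and 2.37 ± 1.75 TPM (SD, n = 11) in fish labelled abnormal, a ratio of 36.6. As differences of group means of log2(TPM + 1), it was higher than before transport by 1.88 at the end of transport, by 3.84 after 1 day and by 5.00 in fish labelled normal. The difference of abnormal from normal was -4.73, and by day it was -4.84, -4.40 and -4.95 at days 3, 4 and 5. After rescaling, the first 4 of these differences were 2.18, 3.99, 5.28 and -4.87. The libraries of the groups did not overlap in any of these 4 comparisons. Over all 15430 liver genes tested, 3.45%, 7.38% and 6.81% were higher with no overlap in the first 3, and 4.09% were lower with no overlap in the last. Abnormal and before-transport livers differed by 0.27 as deposited, which is below their pooled within-group SD of 0.58. After rescaling they differed by 0.41, for which no SD of the rescaled values is given.

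In spleen the order was the same from a higher start. Before transport the 4 spleens had 8.36, 7.88, 6.93 and 5.46 TPM. At the end of transport they had 23.95, 31.9, 17.5 and 10.7 TPM. After 1 day they had 31.9, 14.3, 61.7 and 69.6 TPM, and the groups at the end of transport and at day 1 overlapped. Fish labelled normal had 68.0, 257 and 245 TPM at day 3. They had 84.5, 199, 96.1 and 247 TPM at day 4 and 149, 195, 97.3 and 86.8 TPM at day 5. Within this label the spleens ranged from 68.0 to 257 TPM with a median of 149 TPM, and high and low spleens occurred on each day. Fish labelled abnormal had 7.86, 16.9 and 11.5 TPM at day 3. They had 3.67, 11.8, 12.0 and 6.34 TPM at day 4 and 9.67, 4.54, 17.2 and 11.01 TPM at day 5. All 11 lay below the lowest spleen labelled normal.

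The mean of odc1 in spleen was 156.8 ± 73.8 TPM (SD, n = 11) under the normal label and 10.2 ± 4.43 TPM (SD, n = 11) under the abnormal label, a ratio of 15.3. On the log2(TPM + 1) scale the differences from before transport were 1.35 at the end of transport, 2.26 after 1 day and 4.15 for fish labelled normal. The difference of abnormal from normal was -3.77, and by day it was -3.71, -4.03 and -3.57. Rescaling gave 1.42, 2.47, 3.91 and -3.14 for the 4 comparisons. The groups did not overlap in any of the 4, as was so for 12.3%, 3.38% and 19.1% of the 17998 spleen genes in the higher direction and for 19.8% in the lower direction. Spleens labelled abnormal were above those before transport by 0.38, within their pooled SD of 0.58 as deposited, and overlapped them. After rescaling that difference was 0.77. The SD of 0.58 is of the values as deposited, and no SD of the rescaled values is given, so 0.77 cannot be placed against it.

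**Figure D1:**
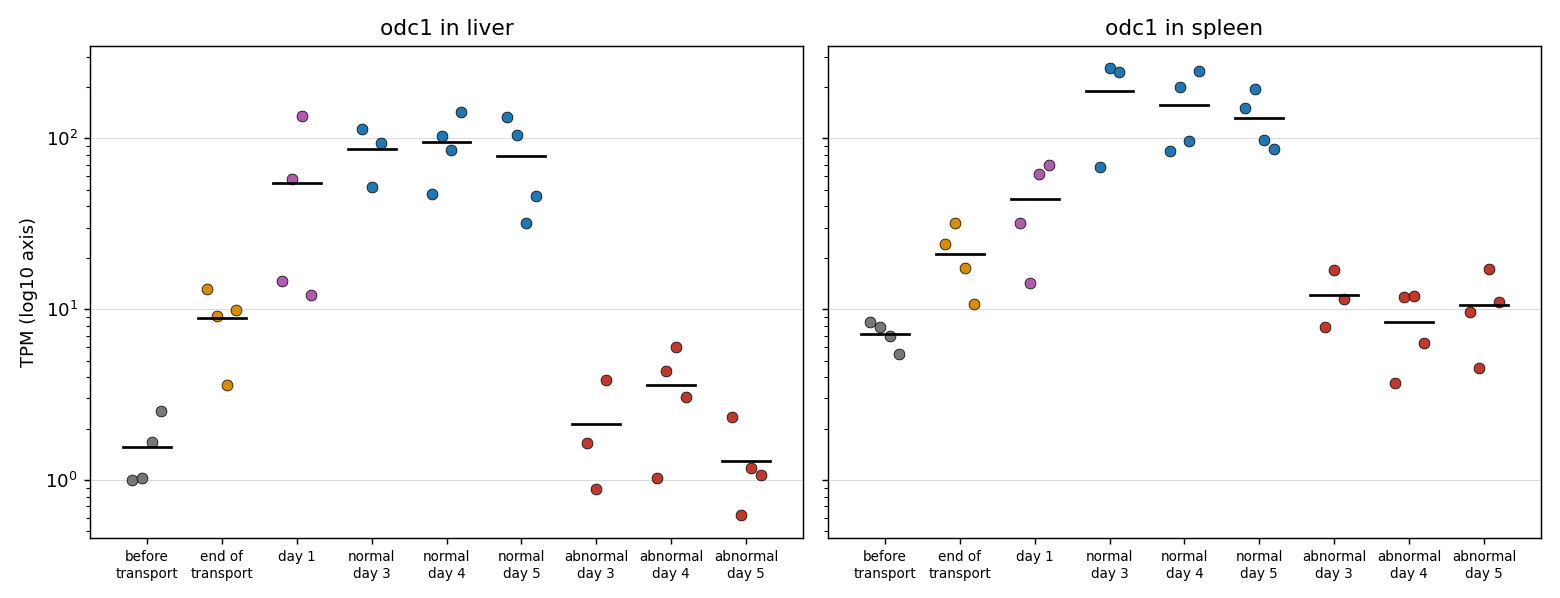
TPM of odc1 (log10 axis) in each library of the 9 conditions, liver at left and spleen at right, with points for libraries and bars for group means. Fish labelled normal sit between 31.9 and 142 TPM in liver and between 68.0 and 257 TPM in spleen, above all fish taken before transport and all fish labelled abnormal.

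Ranked over both tissues, the highest group means of odc1 were those of spleens labelled normal at day 3, 190.0 ± 105.8 TPM (SD, n = 3), at day 4, 156.6 ± 79.2 TPM (SD, n = 4), and at day 5, 132 ± 49.9 TPM (SD, n = 4). Livers labelled normal followed at days 4, 3 and 5, with 94.4 ± 39.3, 86.2 ± 31.3 and 79.0 ± 48.1 TPM. Below them came day 1 in liver, 54.6 ± 57.2 TPM, day 1 in spleen, 44.4 ± 25.8 TPM, and the end of transport in spleen, 21.0 ± 9.06 TPM. The rest of the order ran from 12.1 ± 4.53 TPM in spleens labelled abnormal at day 3 to 1.30 ± 0.729 TPM in livers labelled abnormal at day 5. Of the 17 neighbouring pairs in that order, only spleen before transport and liver labelled abnormal at day 4, with 7.16 ± 1.28 and 3.62 ± 2.11 TPM, differed by more than the larger SD of the pair. No neighbouring pair was free of overlap. Over the 34 libraries of a tissue the SD of log2(TPM + 1) of odc1 was 2.31 in liver and 1.83 in spleen, larger than that of 99.5% and 98.4% of the genes.

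Cell type markers also differed between the groups, some with odc1 and some not, and because these are bulk tissues, fewer cells of a type and less RNA per cell cannot be told apart. In spleen the 5 matched neutrophil markers (mmp9, ncf1, nccrp1, cebp1 and csf3r) summed to 71.1 to 124 TPM before transport. They reached 347 to 758 TPM at the end of transport, 694 to 1723 TPM after 1 day and 623 to 1882 TPM in fish labelled normal, against 98.8 to 904 TPM in fish labelled abnormal. All 5 had lower means under the abnormal label. The same list in liver summed to 10.4 to 20.1 TPM before transport, 27.8 to 80.4 TPM under the normal label and 5.55 to 47.6 TPM under the abnormal label, where 2 of its 5 means were higher and 3 lower than under the normal one. Macrophage markers (3 matched) summed in spleen to 1760 to 3117 TPM under the normal label and 344 to 1544 TPM under the abnormal label, and all 3 means were lower in the latter. Red blood cell markers went the other way, with 6 of 6 means higher under the abnormal label in spleen and sums of 632 to 1926 TPM against 55.5 to 514 TPM. In liver they summed to 45.5 to 117 TPM under the abnormal label and 16.7 to 46.0 TPM under the normal label. Proliferation genes (7 matched) were lower in 7 of 7 means under the abnormal label in both tissues, with sums in spleen of 11.8 to 125 TPM against 131 to 318 TPM. After 1 day in spleen, when odc1 was above its level before transport, the lists went in different directions. Macrophage markers summed to 258 to 915 TPM against 1506 to 2713 TPM before, with 1 of 3 means higher and 2 lower. Proliferation genes summed to 35.2 to 224 TPM (median 49.0) against 75.0 to 160 TPM (median 116), which overlapped. Of their 7 means, 3 were higher and 4 lower. Red blood cell markers summed to 1123 to 5803 TPM against 320 to 577 TPM, with 6 of 6 means higher. None of these markers was at 0 in every library of a tissue. Their part in the odc1 levels was not tested.

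Further lists moved with the label. In spleen, thrombocyte markers (5 matched) summed to 512 to 1338 TPM under the abnormal label and 63.2 to 238 TPM under the normal one. B cell markers (3 matched) summed to 118 to 337 TPM and 21.4 to 83.6 TPM. Under the abnormal label 4 of the 5 thrombocyte means were higher and 1 lower, and 3 of 3 B cell means were higher. In liver, exocrine pancreas markers (5 matched) summed to 398 to 3867 TPM under the abnormal label and 41.7 to 909 TPM under the normal one, and hepatocyte markers to 114060 to 158640 TPM and 74853 to 114900 TPM. However, 4 of the 11 hepatocyte means were lower under the abnormal label, 2 of them with no overlap, as was so for 4.09% of all liver genes. Endothelial and stromal markers in liver (9 matched) summed to 92.5 to 219 TPM and 25.2 to 48.6 TPM. Of those 9 means, 7 were higher and 2 lower under the abnormal label. T cell markers (2 matched) overlapped between the labels, at 13.5 to 125 TPM and 54.8 to 130.3 TPM in spleen. The hepatocyte list also reached spleen, with sums of 633 to 4540 TPM when transport ended against 103 to 230 TPM before it, with all 11 means higher. Their part in the results was not tested.

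As deposited, oaz1a stayed within a narrow band. In liver before transport it had 186, 136, 153 and 139 TPM, and at the end of transport 197, 195, 187 and 161 TPM. After 1 day it had 223, 235, 199.6 and 191 TPM, each above the 4 livers before transport. Fish labelled normal had 157, 142 and 164 TPM at day 3, then 184, 194, 176 and 166 TPM at day 4 and 176, 140.0, 157 and 205 TPM at day 5. Fish labelled abnormal had 173, 169 and 217 TPM at day 3, then 182, 199, 187 and 219 TPM at day 4 and 232, 189, 197 and 215 TPM at day 5. The 2 labels overlapped over the 3 days together. The means were 169 ± 20.4 and 198 ± 20.4 TPM (SD, n = 11 each) under the normal and the abnormal label, a log2 difference of 0.23 that rescaling reduced to 0.09.

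In spleen, oaz1a had 222, 203, 184 and 172 TPM before transport, and then 152, 156, 140.3 and 144 TPM at the end of transport and 149, 135, 114 and 134 TPM after 1 day. The spleens of both later groups were all below those before transport, by 0.39 and 0.55 on the log2(TPM + 1) scale, and by 0.31 at both times after rescaling. Fish labelled normal had 157, 194 and 189.8 TPM at day 3, 197, 148, 184 and 178 TPM at day 4 and 166, 199.96, 148 and 176 TPM at day 5. Fish labelled abnormal had 147, 176 and 145 TPM at day 3, 112, 185.5, 233 and 172 TPM at day 4 and 175, 190.0, 209 and 213 TPM at day 5. The means were 176 ± 19.0 and 178 ± 34.5 TPM (SD, n = 11 each), so the labels differed by -0.02 in the values as deposited. After rescaling the difference was 0.64 with the abnormal label higher, so for oaz1a in spleen the direction between labels rests on the scaling. The differences from before transport in liver also grew on rescaling, from 0.27 to 0.67 at the end of transport, from 0.47 to 0.71 after 1 day and from 0.13 to 0.51 for fish labelled normal. In spleen the last of these went from -0.15 to -0.37. After 1 day, 7.38% of the liver genes were higher and 12.6% of the spleen genes lower with no overlap, and at the end of transport 22.6% of the spleen genes were lower with no overlap.

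**Figure D2:**
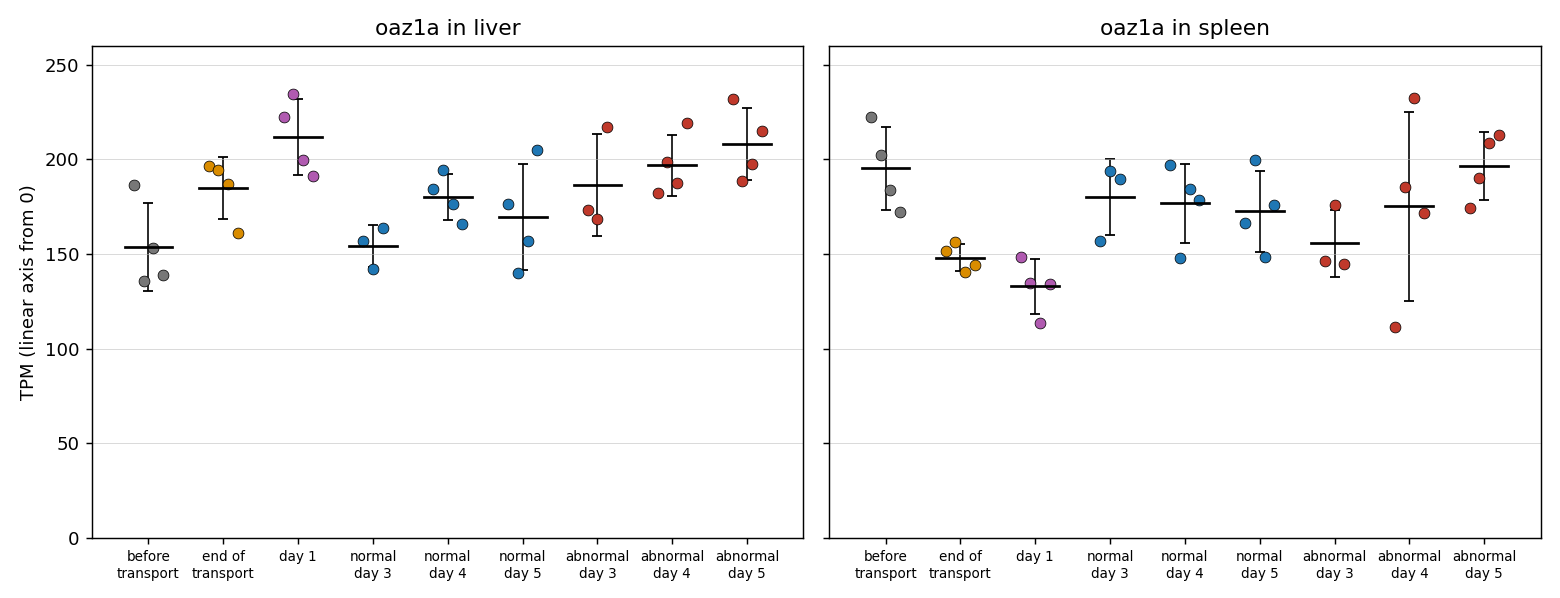
TPM of oaz1a (linear axis from 0) in each library, liver at left and spleen at right, with points for libraries, bars for group means and whiskers for 1 SD. All 68 libraries sit between 112 and 235 TPM.

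The group means of oaz1a ran from 212 ± 20.04 TPM (SD, n = 4) in liver after 1 day to 133 ± 14.4 TPM (SD, n = 4) in spleen after 1 day, so the 2 ends of the order are the same day in the 2 tissues. Of the 17 neighbouring pairs in that order, 1, the end of transport and day 1 in spleen, differed by more than the larger SD of the pair, and no pair was free of overlap. Over all 68 libraries oaz1a had a coefficient of variation of 16.2%, lower than that of any other of the 18666 genes as deposited. Within a tissue, 38 of 15430 liver genes and 26 of 17998 spleen genes had a smaller SD of log2(TPM + 1) than the 0.21 and 0.26 of oaz1a. That rank belongs to the TPM scale. After rescaling the SD was 0.39 in both tissues, and 35.7% of liver genes and 31.0% of spleen genes varied less.

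The ratio of the 2 transcripts was highest before transport and under the abnormal label. In liver the median of oaz1a over odc1, both in TPM, was 112 before transport, 18.8 at its end and 9.70 after 1 day. It was 1.89 (range 1.17 to 4.91) in fish labelled normal and 105 (range 31.1 to 304) in fish labelled abnormal. In spleen the medians were 26.6, 7.18 and 3.30 at the first 3 times, then 1.11 (range 0.723 to 2.33) and 18.6 (range 10.4 to 41.8) under the normal and the abnormal label. The ratio does not depend on the scaling of a library, since both genes share it. In 4 of the 11 spleens labelled normal odc1 was above oaz1a, and in no other library of either tissue was it so. The paralogue oaz1b, more abundant than oaz1a in spleen, is not part of this ratio. In livers labelled abnormal the ratio rests on odc1 values of only 0.62 to 6.03 TPM.

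Genes whose pattern was most like odc1 were ranked by Pearson r of log2(TPM + 1) over the 34 libraries of a tissue, as a description. The libraries share groups and scaling, so high values are common. In liver 65 of 15429 other genes, and in spleen 44 of 17997, reached r of 0.9. The closest named genes in liver were gfm1, a mitochondrial translation elongation factor (r = 0.96), igbp1, sdf2, ppp1r14bb and cnih1 (r = 0.95). Gene gfm1 had a mean of 1.29 TPM before transport, 15.9 TPM under the normal label and 1.38 TPM under the abnormal label. In spleen they were slc2a6, a sugar transporter of the GLUT family (r = 0.95), vmp1, a membrane protein needed for autophagy, slc16a6b, tmem41b and pgm2, a phosphoglucomutase (r = 0.93). Gene slc2a6 had means of 3.48, 45.8 and 4.85 TPM in the same 3 classes. No gene reached r of 0.9 with oaz1a. Its closest named genes were sf3b6, a splicing factor subunit (r = 0.74), tjp2b, nfu1, ndufb8 and hddc3 in liver, and bcl7bb (r = 0.79), acot8, fam185a, trir and cmss1 in spleen.

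The rest of the polyamine network was tested in 8 lists that leave out odc1 and oaz1a: 47 genes in liver and 46 in spleen, matched from 65 symbols. The test was limma on log2(TPM + 1), with Benjamini-Hochberg adjustment over all genes of the tissue and a threshold of 0.05. The lists were also chosen with earlier results of these data known, so their counts beside the background are a description. At the end of transport, 3 of 47 network genes rose and 4 fell in liver (rescaled, 8 and 4). Of all liver genes, 2.96% rose, 9.27% fell and 12.2% passed in all (rescaled, 1496 rose and 1255 fell of 15430). In spleen 2 of 46 network genes rose and 4 fell (rescaled, 7 and 9). Of all spleen genes, 5.23% rose, 6.98% fell and again 12.2% passed (rescaled, 2184 rose and 2530 fell of 17998). Both network shares as deposited are near the background. In the fit of the compared groups alone, 1 liver gene (mych) and 18 spleen genes passed. The spleen count was 3 without before-transport library 1 or 3 or without end-of-transport library 1 or 3, and 2 without before-transport library 2. The count over all liver genes, 1886, was 3581 or 3223 without before-transport library 1 or 2, 1111 without library 4, and 830 or 850 without end-of-transport library 2 or 4. The count over all spleen genes, 2197, was 1410 without end-of-transport library 2.

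After 1 day, 12 of 47 network genes rose and 7 fell in liver (rescaled, 17 and 5). Of all liver genes, 9.99% rose, 17.3% fell and 27.3% passed in all (rescaled, 2870 rose and 2660 fell of 15430). Without liver library 3 of day 1 only 4 network genes rose and 3 fell as deposited, and 1941 of all genes passed in place of 4218. Without that library and before-transport library 4, 9 passed, and in the fit of the compared groups alone 2 passed (myca and mat2ab). In spleen 2 of 46 network genes rose and 7 fell (rescaled, 8 and 9). Of all spleen genes, 4.17% rose, 15.9% fell and 20.1% passed in all (rescaled, 2926 rose and 3244 fell of 17998). The network count as deposited was 5 without before-transport library 1 or 4 or day 1 library 3, and 19 without day 1 library 4. The limma fit of the compared groups alone called 0, with 9 of the network genes at an unadjusted p under 0.05. Over all spleen genes 3609 passed, 2368 without before-transport library 1, 1838 without day 1 library 3 and 6454 without day 1 library 4.

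In fish labelled normal against fish before transport, 19 of 47 network genes rose and 10 fell in liver, where 16.9% of all genes rose, 34.7% fell and 51.6% passed in either direction. As a description, the network had more rises than falls where the whole tissue had the reverse. Rescaling gave 25 and 6 against 4471 and 4275 over all genes. In spleen 23 of 46 network genes rose and 2 fell (rescaled, 21 and 4). Of all spleen genes 32.1% passed, 21.5% upward and 10.6% downward (rescaled, 3605 upward and 3711 downward of 17998). Between labels, 8 of 47 liver genes were higher and 21 lower in abnormal than in normal fish (rescaled, 10 and 27). Of all liver genes 50.4% passed, 29.1% higher and 21.3% lower (rescaled, 4563 higher and 4636 lower of 15430). In spleen 2 of 46 were higher and 35 lower, against 61.9% of all genes, 7.75% higher and 54.2% lower. Rescaling turned the spleen split to 8 higher and 25 lower, against 4990 and 5120 over all genes. Of the 37 spleen calls, 27 passed in the same direction after rescaling, 10 did not pass, and 1 of those, oat, changed sign. These counts moved by less than 1.5 times without any 1 library.

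The paralogue oaz1b differed more between groups in liver than oaz1a did. It rose in liver from 90.4 ± 10.5 TPM (SD, n = 4) before transport to 219 ± 93.7 TPM (n = 4) after 1 day and to 185 ± 28.7 TPM (n = 11) in fish labelled normal. Those log2 differences were 1.18 ± 0.22 (SE, adjusted p = 0.0005146) and 1.01 ± 0.18 (SE, adjusted p = 4.981e-05), and the first did not pass in the fit of the compared groups alone (adjusted p = 0.1036). It was lower under the abnormal label, at 121 ± 20.3 TPM, by 0.63 (adjusted p = 0.0003253). In spleen oaz1b was the most abundant antizyme transcript, at 578 ± 37.8 TPM before transport, 619 ± 56.8 TPM under the normal label and 591 ± 109 TPM under the abnormal label. None of its 4 comparisons there passed as deposited. After rescaling it passed as higher under the abnormal than under the normal label, so that result rests on the scaling. Gene oaz2a was lower under the abnormal label in both tissues, at 5.98 ± 1.12 against 8.96 ± 2.24 TPM in liver (adjusted p = 0.004208) and at 9.44 ± 3.60 against 23.0 ± 11.3 TPM in spleen (adjusted p = 0.0002499), where the log2 difference of -1.18 was -0.58 after rescaling. Antizyme inhibitor azin1b, which resembles ornithine decarboxylase and takes antizyme away from it, rose in liver at the end of transport from 248.5 ± 115.8 to 467 ± 67.7 TPM (n = 4 each, log2 difference 1.00 ± 0.22, adjusted p = 0.004228, but 0.1926 in the fit of the compared groups alone). Under the normal label it was at 175.5 ± 28.4 TPM in liver and 114 ± 13.2 TPM in spleen. In spleen it was lower under the abnormal label, at 69.2 ± 10.97 TPM (log2 difference -0.73), but after rescaling that difference was -0.08 and did not pass. How reads shared by oaz1a and oaz1b were divided cannot be checked from TPM.

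Genes of the later steps of synthesis moved in different directions. Gene srm, spermidine synthase, rose in liver from 4.50 ± 1.41 TPM before transport to 19.98 ± 14.2 TPM after 1 day and 13.4 ± 6.46 TPM under the normal label, and was 6.41 ± 2.84 TPM under the abnormal label (log2 difference between labels -0.94 ± 0.27, adjusted p = 0.004066). Its day 1 call did not pass in the fit of the compared groups alone (limma adjusted p = 0.09581). In spleen srm fell at the end of transport from 14.4 ± 2.14 to 7.13 ± 1.55 TPM. It was 28.2 ± 5.36 TPM under the normal label and 11.8 ± 3.93 TPM under the abnormal label (log2 difference -1.23 ± 0.19, adjusted p = 2.211e-06, and -0.61 after rescaling). Gene sms, spermine synthase, ran opposite to odc1. It was lower under the normal label than before transport, at 1.67 ± 0.559 against 4.54 ± 2.14 TPM in liver and 9.77 ± 2.19 against 18.3 ± 1.97 TPM in spleen. It was higher again under the abnormal label, at 3.51 ± 0.694 and 18.1 ± 2.89 TPM (log2 differences 0.76 and 0.82, adjusted p = 0.0001785 and 7.097e-05, the second 1.44 after rescaling). Over the 34 libraries, r of sms with odc1 was -0.58 in liver and -0.72 in spleen.

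Gene amd1, S-adenosylmethionine decarboxylase, which supplies the aminopropyl groups for both synthases, fell at the end of transport. Its means went from 16.9 ± 16.3 to 3.25 ± 1.61 TPM in liver (log2 difference -1.78 ± 0.40, adjusted p = 0.004991, but 0.1662 in the fit of the compared groups alone) and from 47.2 ± 9.51 to 22.5 ± 4.90 TPM in spleen (-1.04 ± 0.32, adjusted p = 0.02919). In liver its labels were alike in mean, 12.8 ± 5.06 and 12.6 ± 2.56 TPM. In spleen it was lower under the abnormal label, 28.9 ± 8.76 against 52.4 ± 10.2 TPM (log2 difference -0.90, and -0.26 after rescaling). The mitochondrial arginase arg2, which makes ornithine from arginine, was higher in liver under the abnormal label, 31.6 ± 22.8 against 12.998 ± 4.65 TPM (adjusted p = 0.0003016). Agmatinase, agmat, was higher there too, 12.4 ± 3.26 against 4.92 ± 1.82 TPM. In spleen agmat was lower, 2.30 ± 0.911 against 6.61 ± 3.56 TPM (log2 difference -1.10, and -0.60 after rescaling). Between these spleen labels it reached the 5 TPM needed for naming only through the normal label. At the end of transport in spleen, the limma call of srm was lost without any 1 of the 4 libraries before transport or libraries 1, 2 and 3 of the end of transport (adjusted p = 0.05969 to 0.1262). That of amd1 was lost without libraries 1, 2 or 4 before transport or 1, 2 or 3 of the end (adjusted p = 0.05521 to 0.09695).

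Both measured genes of polyamine breakdown were lower in abnormal fish. Spermine oxidase, smox, had 3.84 ± 1.47 against 7.97 ± 1.82 TPM in liver (log2 difference -0.93 ± 0.22, adjusted p = 0.000885). In spleen it had 14.5 ± 5.51 against 58.6 ± 11.3 TPM with no overlap (-2.04 ± 0.23, adjusted p = 1.147e-08), and before transport 20.4 ± 6.09 TPM. Of all spleen genes, 19.8% were lower under the abnormal label with no overlap. Gene sat2b, named as a diamine acetyltransferase, had 2.30 ± 1.72 against 8.90 ± 3.51 TPM in spleen and 2.41 ± 0.685 TPM before transport.

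Among transporters, slc3a2a, the heavy chain of amino acid exchangers linked in mammals to polyamine transport, moved most. In liver it had 4.76 ± 2.37 TPM before transport, 31.8 ± 31.9 TPM after 1 day, 34.8 ± 13.6 TPM under the normal label and 5.95 ± 2.52 TPM under the abnormal label. The normal and abnormal livers did not overlap, as was so in that direction for 4.09% of liver genes (log2 difference -2.37 ± 0.33, adjusted p = 5.92e-07). In spleen it went from 73.4 ± 9.42 TPM before transport down to 38.4 ± 17.5 TPM after 1 day (adjusted p = 0.0255). That call was lost without libraries 1, 2 or 4 before transport or 2 or 3 of day 1 (adjusted p = 0.05233 to 0.09553), and the liver call at day 1 without library 3 of that day (adjusted p = 0.0793). Neither day 1 call passed in the fit of the compared groups alone (limma adjusted p = 0.1792 in liver and 0.1571 in spleen). It reached 275 ± 48.2 TPM under the normal label and 31.0 ± 9.44 TPM under the abnormal one (log2 difference -3.17 ± 0.19, adjusted p = 7.689e-14). Its r with odc1 was 0.91 in liver and 0.83 in spleen. The vesicular polyamine transporter slc18b1 and atp13a3, of the family of lysosomal polyamine exporters, had 2.17 ± 0.795 against 11.2 ± 3.33 TPM and 7.22 ± 2.28 against 26.3 ± 4.14 TPM in spleen, with no overlap between labels. In that direction 19.8% of all spleen genes had no overlap. The atp13a3 log2 difference of -1.79 was -1.19 after rescaling. Before transport slc18b1 had 2.58 ± 0.996 TPM in spleen. Of these 3 spleen classes, it reached the 5 TPM needed for naming only through the normal label. The cationic amino acid transporter slc7a2 ran the other way in liver, 8.07 ± 4.66 against 2.25 ± 1.08 TPM (log2 difference 1.40 ± 0.28, adjusted p = 0.000124).

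Ornithine, the substrate of odc1, is made and used by urea cycle and proline pathway enzymes, and 12 genes of that list were tested. In liver 9 rose and 1 fell in fish labelled normal against before transport, against 16.9% and 34.7% of all liver genes. Rescaled, 9 rose and 0 fell, against 4471 and 4275 of all 15430 liver genes. Between labels 9 were lower and 2 higher in abnormal fish, against 21.3% and 29.1%. Rescaled, 9 were again lower and 2 higher, against 4636 and 4563 of all liver genes. The carrier slc25a15b, of the family that moves ornithine into mitochondria, had 0.0525 ± 0.0670 TPM before transport, 12.6 ± 6.58 TPM under the normal label and 0.285 ± 0.426 TPM under the abnormal label. Its log2 differences were 3.58 ± 0.29 (adjusted p = 5.433e-11) and -3.33 ± 0.21 (adjusted p = 1.44e-13). Of these 3 classes, slc25a15b met the naming cut of 5 TPM only through the normal label. The other means were near 0, where the size of a log2 difference depends on the pseudocount of 1. Carbamoyl phosphate synthetase, cps1, went from 4.42 ± 4.95 to 44.5 ± 24.9 TPM and was 5.98 ± 5.13 TPM under the abnormal label, although cps1 is also 1 of the hepatocyte markers, whose sum was higher there. Argininosuccinate synthase, ass1, went from 17.2 ± 4.94 to 182.5 ± 121 TPM (log2 difference 3.02 ± 0.52, adjusted p = 2.297e-05). Ornithine transcarbamylase, otc, had 21.5 ± 5.98 TPM under the abnormal and 59.0 ± 13.02 TPM under the normal label (-1.44 ± 0.17, adjusted p = 5.28e-08). Its labels did not overlap, as was so in that direction for 4.09% of liver genes. Gene gamt, the creatine-forming guanidinoacetate methyltransferase, ran opposite, at 193 ± 57.8 against 46.4 ± 7.78 TPM (1.91 ± 0.16, adjusted p = 6.449e-11). Its labels had no overlap, as was so in that direction for 9.33% of liver genes.

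In spleen, 9 of the 12 ornithine genes rose under the normal label and none fell, against 21.5% and 10.6% of all genes. Rescaled, 7 rose and 1 fell, against 3605 and 3711 of all 17998 spleen genes. Under the abnormal label 10 were lower and none higher, against 54.2% and 7.75% of all genes. Rescaled, 8 were lower and 2 higher, against 5120 and 4990 of all spleen genes. Here the carrier that differed most was the paralogue slc25a15a, with 48.8 ± 9.59 TPM before transport, 353 ± 134 TPM under the normal label and 54.5 ± 30.4 TPM under the abnormal one (log2 differences 2.75 ± 0.42 and -2.77 ± 0.31, adjusted p = 1.067e-05 and 1.142e-08). Gene ass1 had 53.1 ± 15.1, 189 ± 64.4 and 55.0 ± 20.04 TPM in these 3 classes. Argininosuccinate lyase, asl, had 34.4 ± 3.38, 63.2 ± 11.9 and 23.0 ± 7.15 TPM. Between labels the ass1 and asl log2 differences of -1.75 and -1.45 were -1.10 and -0.81 after rescaling. The set of r with odc1 over 34 libraries included 0.88 for slc25a15b and 0.88 for cps1 in liver and 0.88 for slc25a15a in spleen.

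The methionine list supplies S-adenosylmethionine and recycles the by-product of the synthases. Gene mat2ab, a methionine adenosyltransferase subunit, rose in liver from 7.06 ± 2.45 TPM before transport to 64.9 ± 43.2 TPM after 1 day and 84.4 ± 95.4 TPM under the normal label, and was 12.5 ± 4.85 TPM under the abnormal label. The SD shows that livers labelled normal differed widely among themselves, but the label difference passed (-2.06 ± 0.42, adjusted p = 0.00014). In spleen mat2ab fell at the end of transport from 59.4 ± 7.35 to 22.8 ± 1.41 TPM (-1.33 ± 0.28, adjusted p = 0.002212). Gene adi1, of the methionine salvage route, was lower under the abnormal label in both tissues, 14.8 ± 4.86 against 28.0 ± 5.60 TPM in liver and 6.86 ± 2.67 against 27.5 ± 6.62 TPM in spleen. Gene mat1a, the liver methionine adenosyltransferase, rose at the end of transport from 148.5 ± 55.4 to 353 ± 126 TPM (adjusted p = 0.01228, 0.07005 without end-of-transport library 4 and 0.1124 in the fit of the compared groups alone).

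Spermidine is used to form hypusine on the translation factor eIF5A. Gene eif5a was higher in livers labelled abnormal, 421 ± 53.6 against 269 ± 45.2 TPM (log2 difference 0.65 ± 0.10, adjusted p = 2.667e-06). In spleen it was lower, 274 ± 68.6 against 466 ± 33.0 TPM, as were eif5a2 and the hypusine-forming enzyme dhps. After rescaling, the spleen log2 differences of dhps, eif5a and eif5a2 went from -0.81, -0.81 and -0.80 to -0.23, -0.15 and -0.16, of which dhps still passed (limma adjusted p = 0.04173).

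Myc is known in mammals to drive transcription of the ornithine decarboxylase gene. In liver myca and mych were lower than before transport at its end, after 1 day and under the normal label. There myca fell from 13.7 ± 3.73 TPM before transport to 4.38 ± 1.07 TPM at the end of transport. It was at 2.91 ± 1.07 TPM after 1 day and 4.05 ± 1.22 TPM under the normal label. The log2 differences were -1.44 ± 0.28, -1.91 ± 0.28 and -1.55 ± 0.24 (adjusted p = 0.001511, 5.2e-05 and 3.825e-06), the first not passing in the fit of the compared groups alone (adjusted p = 0.06173). Gene mych fell from 76.4 ± 48.1 TPM to 8.85 ± 1.42, 20.5 ± 14.1 and 16.6 ± 9.03 TPM over the same groups, although its day 1 call was lost without before-transport library 4 or day 1 library 1 or 4 (limma adjusted p = 0.05342 to 0.07434) and in the fit of the compared groups alone (adjusted p = 0.1272). The third, mycn, had 1.42 ± 1.31 TPM before transport and 0.785 ± 0.394 TPM at its end, which did not pass. After 1 day mycn was called lower than before transport in liver. That call was lost without library 1, 2 or 3 of day 1 (limma adjusted p = 0.06025 to 0.08426). Between the labels neither myca nor mych differed past the threshold in liver. They were at 4.81 ± 2.45 and 18.7 ± 14.0 TPM under the abnormal label. In spleen mych fell from 72.4 ± 12.2 TPM to 26.5 ± 3.27 TPM at the end of transport and 25.6 ± 9.95 TPM after 1 day (limma adjusted p = 0.0007069, but 0.05153 in the fit of the compared groups alone). It was 45.9 ± 10.3 TPM under the normal label and 22.6 ± 10.04 TPM under the abnormal label (log2 difference -1.08, and -0.44 after rescaling). In spleen myca also fell after 1 day, from 7.725 ± 1.63 to 2.88 ± 0.825 TPM (log2 difference -1.17 ± 0.28). That call had a limma adjusted p = 0.003811, but 0.09333 in the fit of the compared groups alone. Gene max, the binding partner of Myc, was higher under the normal label than before transport in both tissues, 15.2 ± 2.93 against 7.76 ± 1.98 TPM in liver and 64.8 ± 9.19 against 36.7 ± 3.86 TPM in spleen. Under the abnormal label it was 9.17 ± 2.03 and 36.2 ± 7.77 TPM, and its spleen log2 difference between labels went from -0.86 to -0.21 on rescaling. The Myc antagonist mxd3 was lower under the abnormal label in spleen, 2.80 ± 1.52 against 15.5 ± 6.96 TPM (-2.08 ± 0.23, adjusted p = 9.327e-09). The r of myca with odc1 was -0.33 in liver and 0.24 in spleen. Only mRNA was measured, and the part of Myc in the odc1 levels was not tested.

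**Figure D3:**
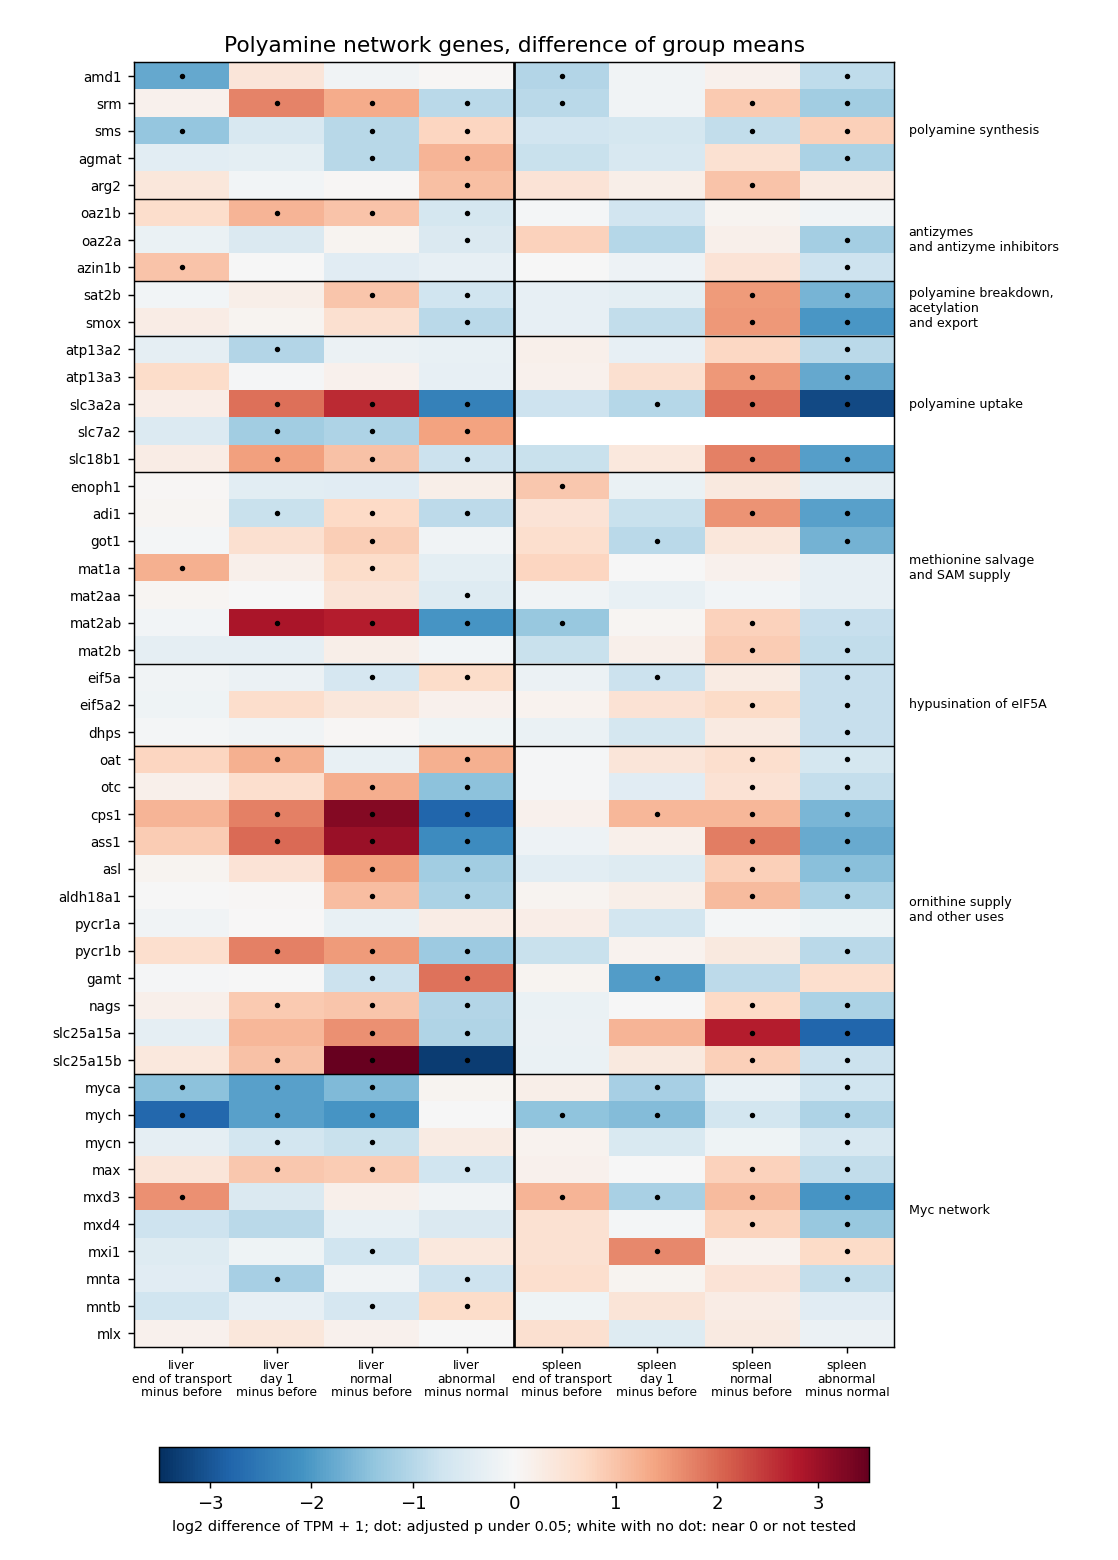
Log2 differences of TPM + 1 for the 47 network genes (rows, by list) in 4 comparisons of liver and 4 of spleen (columns), red for higher and blue for lower, with a dot where the limma adjusted p is under 0.05; slc7a2 was not tested in spleen. In spleen, 23 of 46 genes are called higher in normal than before, against 21.5% of all spleen genes. In abnormal against normal fish 35 of 46 are called lower, against 54.2% of all spleen genes. After rescaling 21 and 25 were called, against 3605 and 5120 of all 17998 spleen genes. These 2 comparisons share the fish labelled normal.

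The same differences were compared between tissues in 1 limma fit of the 18 groups over 18666 genes. Of the network genes, 2 passed at the end of transport, where 6.48% of all genes did. The first count was 1 in 14 of the 16 omissions of 1 library, all but library 4 of liver before transport and library 1 of liver at the end of transport. After 1 day 10 passed (6 without liver library 3 of that day) against 17.5% of all genes, under the normal label 13 passed against 29.9%, and between labels 31 passed against 54.2%. Gene slc3a2a had the largest difference after 1 day among the 10, with a liver difference 2.94 ± 0.64 above the spleen difference (adjusted p = 0.001064). Between labels 26 of the 31 were less negative or more positive in liver, but after rescaling 10 of 24 were, so the direction of that split rests on the scaling.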

How the data were processed

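Liver and spleen RNA was extracted with TRIzol, depleted of ribosomal RNA and made into directional libraries, per the labels' protocols. The submitters' processing notes name fastp 0.23.2 and Salmon 1.10.0. The genome build is not given in the sources used here, nor is the annotation. The deposited values are TPM per gene, made by the authors, and the sums per library ran from 995833.1 to 999253.8. TPM hold no depth, so counting error is unknown and count tests were not used. Samples were grouped by the labels. Nothing states separate boxes for the fish, so p-values measure the spread between these fish.

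From these values log2(TPM + 1) was fitted in R 4.3.3 by limma 3.58.1, with 9 group means per tissue and trended empirical Bayes, over the genes that reached 1 TPM in 3 or more libraries of that tissue. Adjusted p is Benjamini-Hochberg over all genes, with a threshold of 0.05. Normal and abnormal are means over days 3, 4 and 5. A difference marked ± has its SE. Both members and all lists were chosen with earlier results of these data known. The 2 genes therefore carry no test, and the counts of list genes are a description. List genes could be named where they passed with at least 5 TPM in the higher group, at most 4 per list and comparison by smallest p. This rule allowed 41 genes, and not all of them are named. Those left out include mat2b, nags, atp13a2, mxi1 and got1, which had the smallest p of its list between labels in spleen (limma adjusted p = 1.359e-10). No further rule fixed which were named. The relatives oaz1b, oaz2a, azin1b, amd1, srm, sms, smox, myca and mych are named throughout. For likeness the 5 highest r with a gene symbol are named. Genes outside this rule were chosen after their values were seen. These are hbae5, rps3a, mycn in liver, oat in spleen, and slc3a2a in the difference between tissues. The fit was checked on simulated data with 200 changed genes. Alternatives were a pseudocount of 0.1, median-of-ratios rescaling, no filter, a fit of only the groups compared, a replicate term, and each library left out. Within a tissue that term was the replicate number. Over both tissues it paired liver and spleen of the same group and number. A fit without the 2 liver libraries that stand apart was added after the data were seen, as was each library left out of the fit over both tissues. Python 3.11.15 with pandas 2.3.3, numpy 2.4.6 and matplotlib 3.10.9 did the rest.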

Additional observations from a re-analysis of the deposited data

Results flagged for a closer look

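The relatives of the 2 genes whose difference was not the same in liver and spleen, by the interaction of the limma fit over 18666 genes, are given here as liver difference minus spleen difference on the log2(TPM + 1) scale. At the end of transport azin1b differed by 1.03 (adjusted p = 0.04761) and myca by -1.63 (adjusted p = 0.005939). After 1 day srm differed by 1.84 (adjusted p = 0.01385) and oaz1b by 1.85 (adjusted p = 0.0001115). For fish labelled normal against before transport, the values were 0.91 for oaz1b (adjusted p = 0.008264), -0.88 for azin1b (adjusted p = 0.01173), -1.29 for myca (adjusted p = 0.001803) and -1.43 for mych (adjusted p = 0.04452). For abnormal against normal fish they were 0.94 for amd1 (adjusted p = 0.01087), -0.51 for oaz1b (adjusted p = 0.0264), 0.68 for oaz2a (adjusted p = 0.04799), 1.11 for smox (adjusted p = 0.003162), 0.80 for myca (adjusted p = 0.004186) and 1.07 for mych (adjusted p = 0.02373).

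After rescaling every one of these kept its sign, but 7 did not pass. They were azin1b and mych for normal against before (-0.32 and -0.94), and amd1, oaz2a, smox, myca and mych for abnormal against normal (0.29, 0.02, 0.36, 0.24 and 0.41). Single libraries also ended calls of the limma interaction. Without liver library 3 of day 1 the adjusted p of srm was 0.06409, and without liver library 4 before transport that of azin1b for normal fish was 0.105. That of mych between labels was 0.06531 without day 3 abnormal liver 3 and 0.05809 without day 3 normal liver 2. The calls of azin1b at the end of transport, mych for normal fish and oaz2a between labels were lost in 14 of 16, 15 of 30 and 28 of 44 omissions, with adjusted p up to 0.1419, 0.1909 and 0.1377.

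After 1 day oaz1a was higher than before transport in every liver, by 0.47, and lower in every spleen, by 0.55 (-0.55), on the log2(TPM + 1) scale. After rescaling these differences were 0.71 and -0.31. With no overlap, 7.38% of all liver genes were higher and 12.6% of all spleen genes lower. Genes that did both were not counted. The difference between the tissues was not tested. In none of the 28 groups of 4 libraries of the 2 genes did 1 library lie far from the others, although chance alone marks about 1 in 20 such groups.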

How the results depend on the processing

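Values of odc1 kept their direction and stayed within the spread between replicates with the pseudocount of 0.1, after rescaling and without each library in turn. Median-of-ratios rescaling moved oaz1a to 0.67, 0.71 and 0.51 (log2) in liver at the end of transport, after 1 day and under the normal label, and to -0.31, -0.37 and 0.64 in spleen after 1 day, under the normal label and for abnormal minus normal. It gave network counts of 12 in liver and 16 in spleen at the end of transport, 17 in spleen after 1 day, interaction counts of 7 and 18 at these times, and 4714 and 6170 of all spleen genes. Fitting the compared groups alone gave network counts of 1 and 2 in liver and 18 and 0 in spleen (9 at an unadjusted p under 0.05), and 139 and 194 liver genes, 6177 and 504 spleen genes and, under the normal label, 9389 spleen genes. A pseudocount of 0.1 left 1 interaction call at the end of transport. Without both liver libraries that stand apart, an alternative chosen after seeing the data, 9 network genes and 2087 of all liver genes passed after 1 day. The cause of these changes was not tested.

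With each library left out in turn, counts at the end of transport ran from 830 to 3581 over all liver genes, from 2 to 5 in the spleen network, from 1410 to 1797 over all spleen genes and from 1 to 2 for the interaction. After 1 day they ran from 7 to 19 in the liver network, 1941 to 4995 over all liver genes, 5 to 19 in the spleen network, 1838 to 6454 over all spleen genes and 6 to 14 for the interaction, whose omissions were added after seeing the data. The replicate number as a fixed term gave network counts of 7, 18, 29 and 29 in liver and 7, 10, 27 and 38 in spleen. For the interaction, liver and spleen of the same group and number were instead taken as a correlated pair. That gave 2, 11, 15 and 31. All these counts were within 1.5 times. Liver and spleen of the same group and number deviated together, with a median r of 0.20. It was over 0.1 in 23 of 34 pairs, lowest -0.31. Pairs of the same group with another number had a median r of -0.08 (over 0.1 in 11 of 96 pairs). The consensus correlation was 0.0382. The labels do not state the pairing, so it was not taken as shown. The main fit over both tissues treated the 68 libraries as independent. Depth is unknown from TPM, so what it limits cannot be given.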

Other observations

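The deposited table is ordered by steadiness. The Spearman correlation of a gene's row with its coefficient of variation over the 68 libraries was 1.0, oaz1a stands in row 1 of 18666 and odc1 in row 15143. Over both tissues together, 0 genes varied less than oaz1a on the log2(TPM + 1) scale as deposited, and 69.5% did after median-of-ratios rescaling, when its SD went from 0.24 to 0.94. Within liver and within spleen the rescaled SD was 0.39, so 0.94 does not describe the spread between conditions of 1 tissue.

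Among the genes with a mean of at least 100 TPM over the 68 libraries, 230 of 878 had a smaller coefficient of variation than oaz1a after rescaling. As deposited none of the 834 did, which follows from its lowest place among all 18666 genes and adds nothing to it.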
